A study of Caenorhabditis elegans with 6 samples.

Results

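The loci described here are the piRNA genes of Caenorhabditis elegans, listed in the deposited table under names that start with 21ur. They were chosen by name alone, and they make up 15366 of the 99774 rows of the table. The rule also set apart the loci with 60 or more raw counts over the 6 libraries, which were 163 of the 15366. The remaining 15203 loci had fewer counts or none.

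The libraries came from whole worms at the first larval stage (L1), 3 from a div-1 mutant and 3 from the wild type. The mutant was strain BCN6101, which carries the allele div-1(or148) of EU548 together with the reporter pdaf-21::mCherry. The wild type was strain BCN1050, which carries the same reporter in the N2 background, so the reporter is common to both groups. The larvae had hatched overnight in M9 buffer, which holds no food. Total RNA was extracted with TRIzol, treated with a phosphatase and then with a polynucleotide kinase, and made into libraries with a small RNA kit, with inserts of 18 to 36 bases kept. The titles call the material mRNA. The titles also call the 3 replicates of a group biological. They do not say whether these were separate cultures, so p-values measure the spread between these libraries.

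C. elegans piRNAs, also called 21U-RNAs, are germline small RNAs that begin with a uridine. Most are transcribed singly by RNA polymerase II from short genes clustered on chromosome IV, each with its own upstream motif. The precursor is trimmed at its 3′ end, methylated and loaded on the Argonaute PRG-1, and the loaded complex finds transcripts by base pairing and starts the production of secondary small RNAs that silence them. A newly hatched larva has a pair of primordial germ cells beside many more somatic cells, so germline RNA is a small part of whole-worm RNA. In such bulk samples fewer germ cells and less RNA per germ cell cannot be told apart.

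The libraries held 24566578 to 27182555 counts in gene rows. Sums over loci are given per 1000000 of these gene counts, and levels of single rows and of marker lists in counts per 1000000 of effective library size, the total after TMM scaling (CPM). A count of 0 in one library allows up to 3 counts, which is 0.11 to 0.122 per 1000000 gene counts, and this limit covers counting error only. The allele div-1(or148) is a point allele, so the div-1 transcript is no check of the labels. It stood at 35.04 ± 8.44 CPM in mutants and 32.64 ± 9.58 CPM in wild type (SD, n = 3), and the log2 fold change was 0.10 (edgeR adjusted p = 0.915). Germline markers were present in both groups: all 14 listed genes had counts, and none of the 14 passed the test. Their summed level was 139.5 to 185.2 CPM in mutants and 145.0 to 167.5 CPM in wild type. The highest of them, cgh-1, was lower in mutants (55.35 against 68.06 CPM), while most of the others had positive log2 fold changes.

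Of the 15366 loci, 12780 had no count in any library, which is 83.2%. A count was found at 2586 loci, and 332 of these had one in all 6 libraries. For 1257 loci the counts came from exactly 1 library, and 1023 loci had a single count in all. The 21ur loci together held 78201 counts, and the 163 loci with 60 or more held 66521 of them, or 85.1%. The top 2 loci alone held 15.3% of the counts and the top 20 held 39.5%. The locus 21ur-1 had no count.

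Position in the genome separated the loci with many counts from the rest. Of the 15366 names, 15351 matched a gene of the Ensembl annotation of WBcel235, and all 15351 are annotated with a length of 21 bases. The build behind the deposited counts is not given in the sources used here, so positions below are those of the annotation, matched by name. Surrounding genes were sought among all annotated genes except piRNA genes. On the same strand 587 loci lie in an exon and 2497 in an intron of such a gene. On the other strand 519 lie opposite an exon and 2702 opposite an intron. The 9041 loci in no gene can still overlap other piRNA genes. A locus that met several classes went to the first of exon on the same strand, exon opposite, intron on the same strand and intron opposite. Loci opposite an exon can thus also lie in an intron on the same strand. Another 5 overlap a gene at their first listed position, but their names are annotated on both strands, so they were given no strand class.

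Loci in exons on the same strand took nearly all of the counts. They held 70639 counts, 90.3% of the 21ur total, which is 120.3 counts per locus over the 6 libraries. Loci in introns on the same strand held 4561 counts, or 1.83 per locus. Loci in no gene held 2455 counts, or 0.272 per locus, and the highest of them had 53. Loci opposite an exon held 165 counts (0.318 per locus), and loci opposite an intron held 346 (0.128 per locus). The share of loci with any count was 72.6% in exons on the same strand, 37.0% in introns on the same strand, 10.9% in no gene, 16.4% opposite exons and 6.11% opposite introns.

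**Figure D1:**
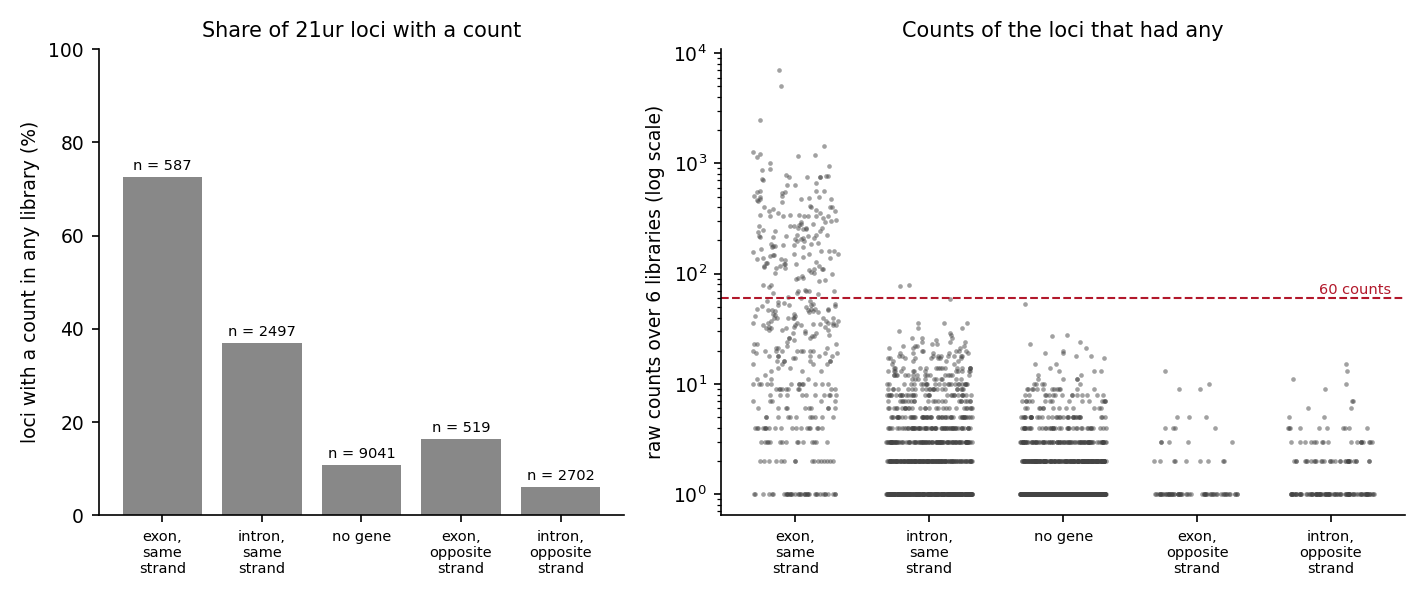
Left, the share of 21ur loci with at least 1 count in any library (percent, y axis) by annotated position (x axis), with the number of loci above each bar. Right, raw counts over the 6 libraries (log scale, y axis) of each locus that had any, by the same positions, where each point is a locus and the dashed line marks 60 counts; all points above the line lie in exons on the same strand except 2 in introns on the same strand.

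All 163 loci with 60 or more counts lay inside a gene on its own strand: 161 in an exon of a protein-coding gene and 2 in an intron. None of the 9041 loci in no gene and none of the loci opposite a gene reached 60. Of the 500 loci in same-strand exons of protein-coding genes, 379 fell in coding sequence and 121 in untranslated regions. The coding ones held 62564 counts and 139 of the 163 loci, and the untranslated ones held 7919 counts and 22 loci.

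Strand set apart loci whose surrounding genes had like levels. For the 500 loci in same-strand exons of protein-coding genes, the surrounding gene had a median of 720 counts and the loci summed to 70483 counts. For 431 loci opposite such exons, the surrounding gene had a median of 889 counts and the loci summed to 145. In introns the surrounding genes had medians of 5059 and 4163 counts, and the loci summed to 4399 on the same strand and 331 on the opposite one. The deposited counts therefore separated the strands at these loci.

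Chromosome IV, which carries the known piRNA clusters, held 14702 of the annotated loci (95.8%), and 14110 lay in its 7 megabase bins with at least 500 loci each. Of the loci on IV, 16% had a count and 123 reached 60. The few loci on other chromosomes had counts more often: 35.7% of 98 loci on I, 41.3% of 109 on II, 38.5% of 78 on III, 37.6% of 202 on V and 30.2% of 162 on X. Chromosome II held 9232 counts at its 109 loci, against 57819 at the 14702 loci of IV, and a single locus on II supplied 6956 of them.

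Among the loci in no gene, detection fell with the distance to the nearest exon on the same strand. Within 1 to 35 bases 38.3% of 81 loci had a count, over 100 and up to 500 bases away 20.6% of 906, over 1000 and up to 5000 bases away 10.8% of 3831, and beyond 5000 bases 5.04% of 3236. The 3236 most distant loci held 256 counts in all, or 0.0791 per locus, and no locus among them had more than 9. Same-strand intronic loci showed no such fall in detection: 35.1% of 367 within 35 bases and 36.6% of 382 over 1000 and up to 5000 bases away had a count. Their counts per locus were 1.92 within 35 bases, 2.31 over 500 and up to 1000 bases away, and 1.21 over 1000 and up to 5000.

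**Figure D2:**
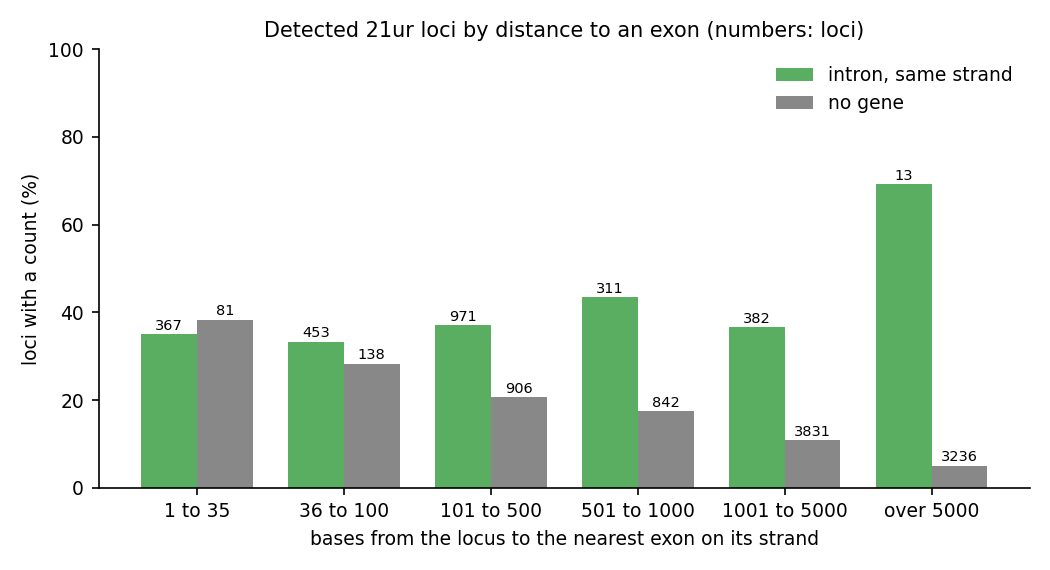
Share of 21ur loci with at least 1 count in any library (percent, y axis) by the number of bases to the nearest exon on the same strand (x axis), for loci in introns on the same strand (green) and in no gene (grey), with the number of loci above each bar. The grey bars fall from 38.3% to 5.04%; the last green bar rests on 13 loci.

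The locus with the most counts was 21ur-14806, at II:9060040-9060060 on the minus strand, wholly inside a coding exon of T24B8.3. It had 1195, 1111 and 955 counts in the 3 mutant libraries and 1179, 1274 and 1242 in the 3 wild-type libraries. On the CPM scale the groups did not overlap, with all mutant libraries lower, yet the log2 fold change of -0.24 ± 0.13 (SE) did not pass the test (edgeR adjusted p = 0.589). T24B8.3 itself had 73131 counts, of which the counts at the locus equal 9.51%, and its own log2 fold change was -0.19.

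Next came 21ur-4679, at IV:15270493-15270513 on the minus strand, with 16 of its 21 bases in a coding exon of ccg-1. Its counts were 778, 989 and 913 in mutants and 938, 864 and 538 in wild type, so the groups overlapped (log2 fold change 0.15 ± 0.23, SE; edgeR adjusted p = 0.865). A further locus in ccg-1, 21ur-10556, touches an exon with 1 base only and still had 1193 counts. The gene ccg-1 had 44653 counts and a log2 fold change of 0.17.

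The other loci of the top 20 were likewise in exons on the same strand, most of them on chromosome IV. They included 21ur-13194 in pqn-89, a gene for a glutamine- and asparagine-rich protein, 21ur-13703 in eps-8, whose product binds actin, and 21ur-15625 in nrfl-1, a gene for a scaffold protein. Further loci were 21ur-8166 in sta-1, the worm STAT gene, 21ur-14209 in unc-44, which encodes ankyrin, and 21ur-5731 in uroc-1 (listed as Y51H4A.7), a urocanate hydratase gene. The remaining ones included 21ur-6216 in sorb-1, 21ur-10685 in tag-273, 21ur-13376 in Y105C5A.8 and 21ur-13453 in Y45F10D.6. Both 21ur-14580 and 21ur-10065 lay in an untranslated region of lin-66, a developmental timing gene, and 21ur-15244 in one of nlp-71 (listed as Y73B6BL.35), a neuropeptide-like gene. The pair 21ur-12303 and 21ur-8784 lay at an exon edge of soc-2, a scaffold gene of Ras signalling. Outside IV stood 21ur-14833 in ssb-1 (listed as C44E4.4), a La-related RNA-binding protein gene on chromosome I, and 21ur-10128 in lgc-27, a ligand-gated channel gene on II.

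None of these top 20 loci passed the test. Their log2 fold changes ran from -0.35 for 21ur-8166 to 0.73 for 21ur-6216. The latter had 230, 107 and 154 counts in mutants and 64, 91 and 124 in wild type (edgeR adjusted p = 0.467), the groups overlapped, and sorb-1 itself, whose product is a muscle attachment protein, had a log2 fold change of 0.54. At 21ur-13194 the counts were 515, 444 and 400 in mutants and 361, 413 and 326 in wild type. At 21ur-15625 they were 257, 221 and 222 against 171, 191 and 201, and here the groups did not overlap, although the log2 fold change of 0.25 did not pass (edgeR adjusted p = 0.634).

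Overlapping loci shared counts. The soc-2 loci start 3 bases apart, and 21ur-12303 had 118, 134 and 109 counts in mutants and 139, 123 and 128 in wild type where 21ur-8784 had 117, 134 and 109, and 138, 123 and 128. Among the 163 loci, 31 overlapped another of them on the same strand in 15 runs, so the 163 loci form 147 separate stretches. They are not independent measurements.

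Each exonic locus was set beside the gene around it. The 161 exonic loci fell in 118 genes with a row in the table and in 3 genes (nrfl-1, scc-2 and daf-38) with no matched row, and 26 genes held more than 1. Both H04M03.12 and M03D4.4 held 4, as did Y57G11C.31 and rga-5. Of the 158 loci with a row for their gene, 116 lay wholly inside the exon and 42 partly, and none had more counts than its gene. Counts at a locus equalled a median of 4.19% of the counts of its gene, with quartiles of 2.54% and 6.71%, from 0.23% for 21ur-14888 in cla-1 (listed as F45E4.3) to 28.1% for 21ur-7919 in Y37A1A.4.

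Counts at the loci rose with the level of the gene per length. Across the 158 loci the Spearman correlation between counts at the locus and counts of the gene per kilobase of exon was 0.837. Over all 341 loci wholly inside an exon, whatever their counts, it was 0.852. These 341 loci held 2.53 times the counts that their genes' totals would place on 21 bases. A read of 18 to 36 bases that counts for every feature it touches would give 1.81 to 2.67 times under even coverage. For the 116 of them with 60 or more counts, which were chosen for high counts, the median ratio per locus was 3.91, with quartiles of 2.88 and 4.79. Of the 341, 59 had no count, and their genes had a median of 15 counts, against a median of 6888 for the genes of loci with 60 or more. These correlations are across loci that share libraries, and a locus shares reads with its gene, so they are given as descriptions. How many of the counts come from piRNAs and how many from fragments of the surrounding transcripts was not tested, since the table holds no read lengths.

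**Figure D3:**
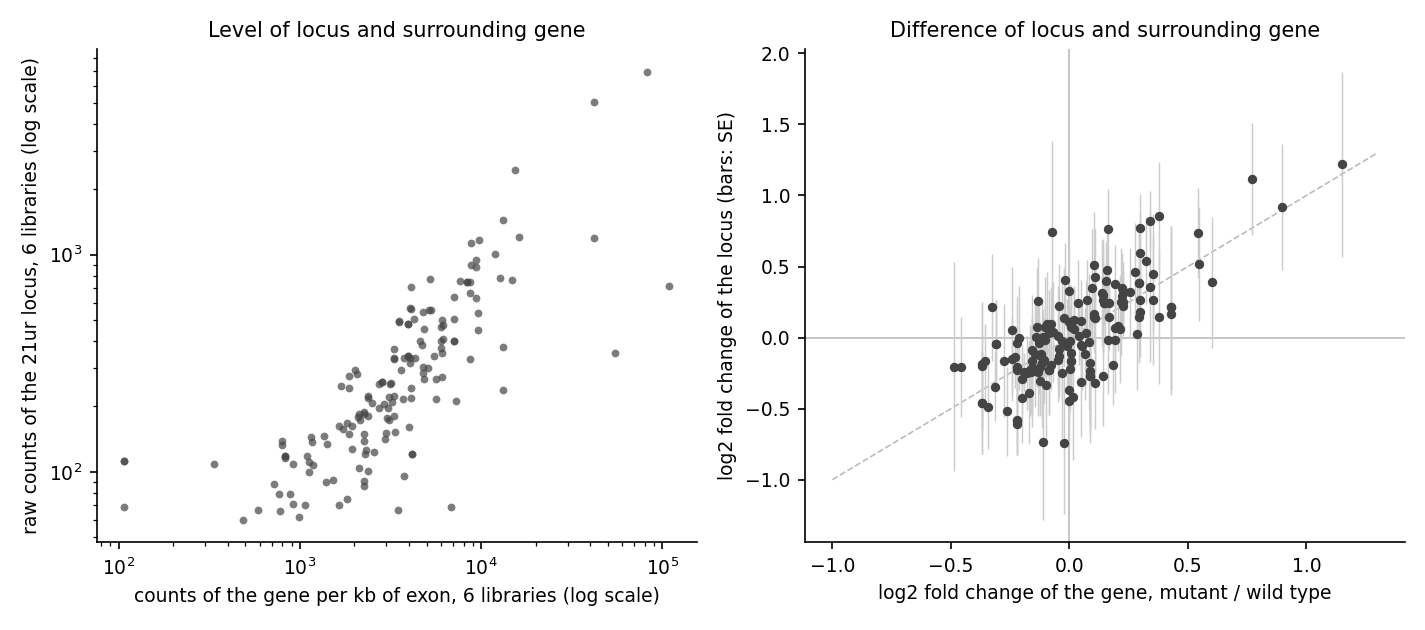
Left, raw counts of 158 exonic 21ur loci with 60 or more counts (log scale, y axis) against counts of the surrounding gene per kilobase of exon (log scale, x axis), summed over 6 libraries. Right, log2 fold change of mutant over wild type of 156 such loci (y axis, bars are SE) against that of the surrounding gene (x axis), with the dashed line at equality; the points follow the line, with a median difference of 0.00897.

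No 21ur locus differed between div-1 mutant and wild type past the threshold. The filter on low counts left 167 loci to test, of which 161 had 60 or more counts and 6 fewer, and 164 of the 167 lay in exons. At an adjusted p under 0.05 edgeR called 0 of the 167, against 0.896% of all 16289 tested gene rows (0.884% higher and 0.0123% lower in the mutant). At an unadjusted p under 0.05 it found 4 loci higher and 3 lower, or 4.19%, against 10.7% of all rows (8.26% higher and 2.44% lower). The 3 lower loci (21ur-13705, 21ur-930 and 21ur-12190) all lie in the gene Y57G11C.31, and 21ur-930 and 21ur-12190 overlap, so they are not independent. DESeq2 gave an adjusted p to 241 loci and called 0 of them, against 2.72% of all 17742 rows to which it gave one. At an unadjusted p under 0.05 it found 6 of the 241 higher and 4 lower, or 4.15%, against 10.7% of those rows. The median log2 fold change was 0.01 for the loci and -0.03 for all rows. The groups did not overlap at 16 of the 167 loci (9.58%), 9 higher and 7 lower in the mutant, against 17.9% of all rows (10.2% higher and 7.73% lower). The 7 lower loci include the 3 in Y57G11C.31. The SE of a locus had a median of 0.318 on the log2 scale. In simulated data the test found 42% of 2-fold and 8% of 1.5-fold changes in rows drawn at random from all 16289 tested rows. Recovery at the 21ur loci alone was not simulated. The lack of calls therefore does not exclude changes of this size at single loci.

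The lowest p belonged to 21ur-14768, at II:10647691-10647711 on the plus strand in a coding exon of M28.10. It had 143, 100 and 118 counts in mutants and 68, 58 and 68 in wild type, which is 4.56 ± 0.507 and 2.58 ± 0.318 CPM (SD, n = 3). All 3 mutant libraries were higher than all 3 wild-type ones (log2 fold change 0.82 ± 0.21, SE; edgeR unadjusted p = 0.00468, adjusted p = 0.158). The gene M28.10 had a log2 fold change of 0.34, with an edgeR adjusted p of 0.569.

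The next 4 loci by p also had groups that did not overlap, and none passed the test. At 21ur-2185, in rga-5, the counts were 51, 41 and 51 in mutants and 24, 27 and 29 in wild type (log2 fold change 0.77, edgeR adjusted p = 0.265; rga-5 itself 0.30). At 21ur-14758, in C49C3.9, they were 29, 29 and 24 against 9, 8 and 19 (1.12, edgeR adjusted p = 0.352; C49C3.9 itself 0.77). At 21ur-12960, in the condensin subunit gene capg-1 on chromosome I, they were 34, 30 and 39 against 19, 24 and 15 (0.76, edgeR adjusted p = 0.378; capg-1 itself 0.16). The one lower locus was 21ur-13705, in Y57G11C.31, with 84, 61 and 61 against 85, 113 and 103 (-0.61, edgeR adjusted p = 0.350; Y57G11C.31 itself -0.22). The other loci with 60 or more counts in Y57G11C.31 had log2 fold changes of -0.59 (21ur-930), -0.58 (21ur-12190) and -0.21 (21ur-7790). Of these, 21ur-930 and 21ur-12190 overlap and had 401 counts each, so they are not separate measurements.

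Differences at the loci followed those of their genes. Over 156 tested pairs of locus and gene, the Pearson correlation of the log2 fold changes was 0.731 and the Spearman correlation 0.70, and 120 pairs had the same sign. The difference of locus and gene had a median of 0.00897 and an SD of 0.235, and 151 of the 156 pairs lay within 0.5 of each other. None of the 117 genes in these pairs passed the test. Pairs share reads and libraries, so these values carry no p.

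At the limit of 60 counts, the loci just inside were 21ur-10130 in C49A9.2 with 60 counts, 21ur-14888 in cla-1 with 62 and 21ur-1813 in Y105C5B.25 with 66. Just outside were 21ur-1334 in an intron of sqrd-1 with 59, 26 bases from an exon, 21ur-12277 in nep-16 (listed as F45E4.7) with 57 and 21ur-14775 in C01B10.3 with 56. The 2 intronic loci above it were 21ur-13782 in F56D5.6, with 79 counts, and 21ur-9656 in the proline dehydrogenase gene prdh-1 (listed as B0513.5), with 78 counts, 14 bases from an exon.

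In no gene, the locus with the most counts was 21ur-3861, at IV:17262514-17262534 on the minus strand. It had 6, 13 and 6 counts in mutants and 4, 12 and 12 in wild type, and it lies 29 bases from an exon on its strand. It was the only locus in no gene that was tested (log2 fold change -0.20, edgeR adjusted p = 0.923). Next were 21ur-4577, with 28 counts, and 21ur-11264, with 27.

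Summed over all loci, 21ur counts were 559.7, 507.9 and 521.4 per 1000000 gene counts in mutants and 470.3, 479.1 and 506.9 in wild type. The means were 529.6 ± 26.9 and 485.4 ± 19.1 (SD, n = 3), a ratio of 1.09. The groups did not overlap by a narrow margin on this scale, and they did overlap on effective library sizes, at 513.2 ± 6.10 and 500.4 ± 7.88. The loci with 60 or more counts summed to 447.7 ± 24.6 in mutants and 415.7 ± 13.9 in wild type, and the groups overlapped on both scales. With 3 libraries against 3 the smallest p of an exact permutation test is 0.1, and no p is given for sums.

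The loci under 60 counts summed to 83.8, 76.8 and 85.3 per 1000000 gene counts in mutants and 65.6, 68.0 and 75.6 in wild type. All mutant libraries were higher, with a ratio of means of 1.18, or 1.11 on effective library sizes. The part of these loci in same-strand exons overlapped between the groups, at 28.9 ± 0.975 and 26.6 ± 2.99. Loci in same-strand introns summed to 31.5 ± 1.68 and 27.75 ± 0.997, apart on this scale and overlapping on effective library sizes.

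Loci in no gene can overlap other 21ur loci but no other annotated gene. They had 534, 372 and 507 raw counts in mutants and 330, 344 and 368 in wild type. Per 1000000 gene counts these are 20.6, 15.1 and 19.6 against 12.9, 12.7 and 14.8, with means of 18.5 ± 2.91 and 13.4 ± 1.16 (SD, n = 3). All mutant libraries were higher than all wild-type ones, with a ratio of 1.38, or 1.29 on effective library sizes. The margin was small. The lowest mutant library (replicate 2) had an exact 95% binomial interval of 13.6 to 16.8. The highest wild-type library (replicate 3) had one of 13.3 to 16.3. Overlapping 21ur loci can share reads, so a read can enter these sums more than once, and both intervals are too narrow. With 1 locus taken from each run of overlapping loci, the means were 15.5 ± 2.42 and 11.1 ± 1.36, a ratio of 1.39. More than 1000 bases from an exon on the same strand, the loci in no gene summed to 9.24 ± 1.87 and 6.59 ± 0.928, a ratio of 1.40, and the groups overlapped.

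Loci opposite introns showed the widest ratio. They had 95, 55 and 73 raw counts in mutants and 41, 40 and 42 in wild type. On this scale the means were 2.91 ± 0.716 and 1.58 ± 0.106, a ratio of 1.84, or 1.72 on effective library sizes, and the groups did not overlap on either scale. Loci opposite exons summed to 1.19 ± 0.359 and 0.947 ± 0.201 and overlapped.

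Other rows with few counts were also higher in the mutant. The gene rows that are not 21ur loci and had 1 to 59 counts in all summed to 924.3, 706.9 and 856.1 per 1000000 gene counts in mutants and 544.0, 547.0 and 578.7 in wild type. Their ratio was 1.49, or 1.40 on effective library sizes, and the protein-coding rows among them had a ratio of 1.48. In these rows, as at the loci in no gene and opposite introns, mutant replicate 2 was the lowest of the mutant libraries. The 6 sperm markers, of which msp-3 was at 0 in all libraries, summed to 3.501 to 5.31 CPM in mutants and 1.49 to 1.89 CPM in wild type, and 1 of the 2 tested (spe-41) passed the test, against 0.896% of all rows. Most of this sum came from spe-41, at 2.40 and 0.544 CPM, and spe-9, at 2.03 and 1.10 CPM. The markers msp-31, msp-76 and gsp-3 had means under 0.1 CPM in both groups. The part that these rows' shared difference has in the 21ur sums was not tested.

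**Figure D4:**
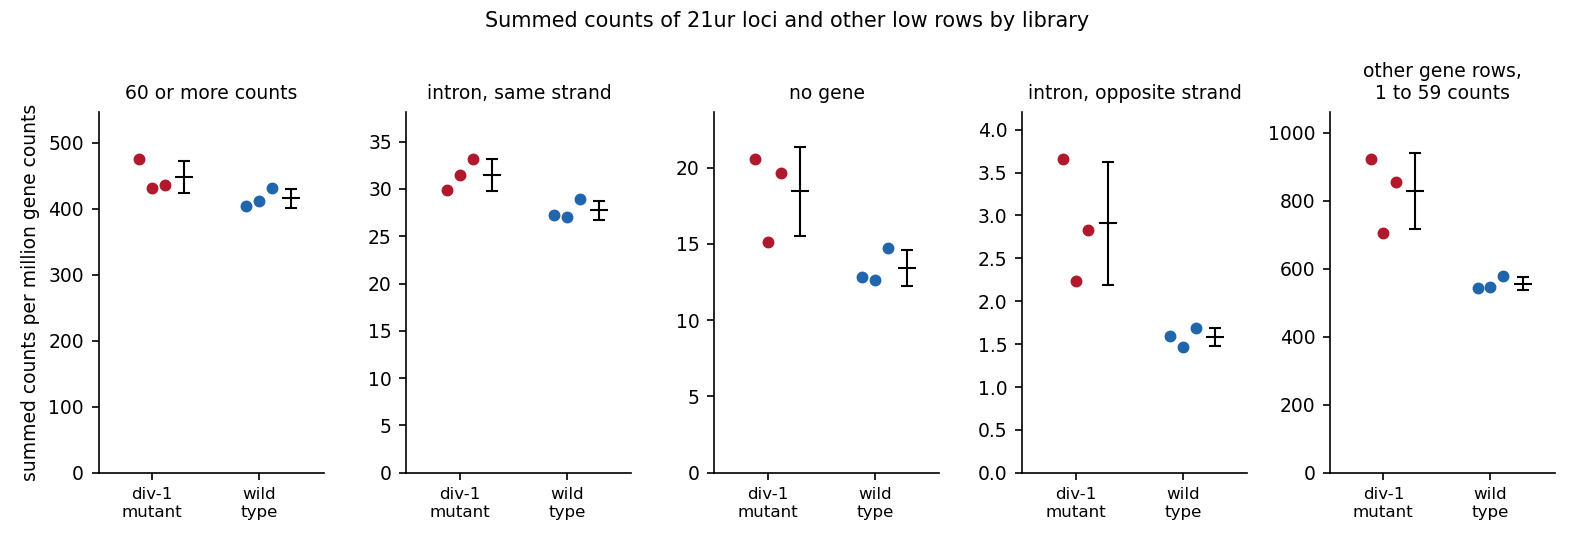
Summed counts per 1000000 gene counts (y axis, from 0, scaled separately in each panel) in the 3 div-1 mutant libraries (red) and the 3 wild-type libraries (blue), with mean and SD beside the points, for 21ur loci with 60 or more counts, for loci in same-strand introns, in no gene and opposite introns, and for other gene rows with 1 to 59 counts in all. The groups overlap in the first panel and do not overlap in the others.

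Over all loci, the number with a count overlapped between the groups. It was 1010, 1039 and 1177 in mutants and 974, 982 and 1044 in wild type (1075 ± 89.2 and 1000.0 ± 38.3, SD, n = 3). At the lowest gene total of any library the expected numbers were 989.5, 1039 and 1149 in mutants and 954.1, 938.3 and 1036 in wild type. In no gene, 283, 257 and 337 loci had a count in mutants and 232, 234 and 260 in wild type, which also overlap. It did not overlap for the loci in no gene that lie more than 1000 bases from an exon on the same strand, at 161, 141 and 179 in mutant libraries and 122, 125 and 138 in wild-type ones. Nor did it overlap for the loci opposite introns, at 58, 38 and 51 against 29, 31 and 36. Both also stayed apart in the numbers expected at the lowest gene total. Loci seen in mutant libraries only numbered 813 and in wild-type libraries only 644. Of these, 22 had a count in all 3 mutant and no wild-type libraries, against 14 the other way round. The same numbers were not computed for other gene rows, and other rows with few counts also summed higher in the mutant. The highest of the 22 had 10 counts: 21ur-13410, 21ur-1697 and 21ur-9200, which overlap in an intron of Y57G11C.42 and had the same 5, 2 and 3 counts in the mutant. Further sets had identical counts, such as 21ur-10273, 21ur-11684 and 21ur-5260 in an intron of sqrd-1, with 4, 1 and 4 in the mutant. Among the 14, 21ur-12045 and 21ur-1877 in an intron of sta-1 each had 3, 7 and 1 in wild type. These numbers therefore do not count independent loci.

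Genes of the piRNA pathway were present at this stage, and few differed. The list held 72 gene rows in 7 roles, all were tested, and 1 rose and 1 fell in the mutant (2.78%, against 0.896% of all rows, or 0.884% higher and 0.0123% lower); over the 72 rows the median log2 fold change was -0.04, and 32 were positive. The 10 rows of piRNA transcription and the 11 of piRNA processing had no member past the threshold, with medians of -0.06 and -0.12. The 12 Argonautes had 1 member higher and a median of 0.24, and the 10 genes of mutator foci 1 member lower and a median of -0.18. The 8 RNA-dependent RNA polymerase genes and partners, the 13 genes of P and Z granules and the 8 genes of nuclear silencing had none.

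The piRNA Argonaute prg-1 stood at 23.0 ± 4.10 CPM in mutants and 20.6 ± 1.39 in wild type (log2 fold change 0.16, edgeR adjusted p = 0.778). The 3′ methyltransferase henn-1 (listed as C02F5.6) and the trimming nuclease parn-1 (listed as K10C8.1) did not pass either, at -0.17 and -0.24 on the log2 scale (edgeR adjusted p = 0.808 and 0.734). Of the factors that sit on piRNA clusters for transcription, snpc-4 (listed as gei-11) was at 58.98 ± 6.32 and 63.38 ± 3.62 CPM and prde-1 (listed as F21A3.5) at 2.16 ± 1.17 and 1.54 ± 0.738 CPM, and neither passed the test (edgeR adjusted p = 0.825 and 0.753). The gene that fell was mut-16, which encodes the scaffold of mutator foci, where secondary small RNAs are amplified downstream of piRNAs. It was at 6.51 ± 1.84 CPM in mutants and 51.9 ± 1.46 CPM in wild type (log2 fold change -2.99 ± 0.22, SE; edgeR adjusted p = 0.002). The gene that rose was sago-2, an Argonaute for secondary small RNAs, at 3.55 ± 0.249 and 0.973 ± 0.254 CPM (log2 fold change 1.87, edgeR adjusted p = 0.0253). The call of sago-2 was lost when any one library was left out except wild-type replicate 3, with edgeR adjusted p from 0.0499 to 0.131 over these 6 fits.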

How the data were processed

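The authors deposited their values as 1 table of raw counts, whole and not normalised, for 3 div-1 mutant and 3 wild-type libraries. Per the submitters' processing notes the tools were DESeq2 1.8.1, featureCounts 1.5.0 and TopHat2 2.1.0. The sources used here give no build, annotation or strand setting. Of 99774 rows, 45836 are genes (15366 of them 21ur loci), 53925 repeats and 13 parts of a construct. Repeat and construct rows stayed out of totals and tests. Totals over all rows were 25051167 to 27632878.

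All gene rows were tested together with edgeR 4.0.16 in R 4.3.3 (TMM, default expression filter by group, robust quasi-likelihood fit on group alone, two-sided test, Benjamini-Hochberg adjustment over 16289 rows, threshold 0.05). The CPM of single rows and of marker lists uses effective library sizes. DESeq2 1.42.0, other scalings and filters, a replicate block and leaving out each library were alternatives. The test was tried on simulated counts of 16289 rows, where it found 8%, 42%, 88% and 98% of 1.5-, 2-, 4- and 8-fold changes with 11 false calls. Replicates of a group differed beyond sampling noise (chi-square per degree of freedom 19.8 to 123), so none was merged. Binomial intervals are exact at 95% and cover counting error only. They take each count as a separate read, although overlapping loci can share reads, so they are too narrow.

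Loci were placed by name in the Ensembl annotation of WBcel235. A locus that touches an exon by at least 1 base counts as exonic. Of 78 pathway symbols, 73 had a row, 4 of them by a published synonym only, and 72 rows remained after merging synonyms. Loci were named by rule: the 20 with the most counts, the 5 with the smallest p, and 3 on each side of the limit of 60 counts, with the genes around them; other loci were named after their values were seen. The members and lists were chosen with earlier results of these data known. Sequences of the loci and their upstream motif were not analysed here.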

Additional observations from a re-analysis of the deposited data

How the results depend on the processing

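No 21ur locus passed the adjusted threshold in the main test or in any of its 13 alternatives; the lowest adjusted p of a locus was 0.158 in the main test, 0.0536 with DESeq2 and 0.301 with the replicate block. Replicate numbers did not pair the libraries (correlations of same-numbered deviations -0.22, 0.504 and -0.315, and not every library correlated best with its own number). With the replicate block the count of pathway genes past the threshold went from 2 to 1, since sago-2 had an adjusted p of 0.0813. Leaving out one library gave 1 to 2 such genes. On effective library sizes the difference of mutant and wild type in the sum over all loci went from 44.23 to 12.85 (per 1000000 counts) and that over the loci with 60 or more counts went to 5.257. Leaving out one library gave 29.2 to 55.1 for the former and 17.9 to 40.3 for the latter, the lowest of both without mutant replicate 1. The difference in detected loci, 75.3, was 24.5 without mutant replicate 3 and 108.0 without mutant replicate 1. The differences in loci under 60 counts, in no gene and opposite introns kept their sign throughout; the alternatives for the sums in no gene and opposite introns were chosen after seeing the data, as was the comparison with other rows of few counts. Log2 fold changes near 0 changed sign: 21ur-13376 to 0.0174 with library size alone; 21ur-5731 to -0.00405 with DESeq2 size factors, -0.0157 without a filter, -0.0126 with the replicate block and -0.0212 with DESeq2; 21ur-15244 to 0.0225 and 0.00335, and 21ur-10685 to 0.0709 and 0.034, with library size alone and upper-quartile factors; 21ur-14888 to -0.00247 with DESeq2. The cause was not tested. Leaving out one library also turned the sign of 21ur-4679 (-0.0626 to 0.322), 21ur-13703 (-0.136 to 0.28), 21ur-13376 (-0.261 to 0.221), 21ur-5731 (-0.24 to 0.138), 21ur-15244 (-0.257 to 0.235), 21ur-10685 (-0.538 to 0.523), 21ur-10128 (-0.584 to 0.178), 21ur-10130 (-0.0908 to 0.322), 21ur-14888 (-0.246 to 0.217) and prde-1 (-0.0468 to 0.942). Of the 15366 loci, 83.2% had no count in any library, and such loci cannot be compared singly at this depth.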
